A study of Mus musculus with 6 samples.

Results

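Cell cycle entry of neural stem and progenitor cells (NSPCs) is gated by the D cyclins, their kinases and the inhibitors that hold them in check. The genes described here are 10 of the 55471 genes in the table, taken by symbol: the D cyclins Ccnd1, Ccnd2 and Ccnd3, the kinases Cdk4 and Cdk6, the Cip/Kip inhibitors Cdkn1a (p21), Cdkn1b (p27) and Cdkn1c (p57), the INK4 inhibitor Cdkn2c (p18) and the substrate Rb1. All 10 passed the filter on low values, a normalized count averaging 10 or more over the 6 libraries, which left 18664 genes to test. The list of symbols was drawn up with earlier results of these data known.

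The cells were YFP-positive NSPCs sorted by FACS from the hippocampal subgranular zone (SGZ), where new granule neurons arise, at postnatal day 35 and 10 days after tamoxifen (TAM). There were 3 libraries from 3xTg-AD;Nestin-CreERT2;ROSA26-EYFP mice (3xTg) and 3 from NTG;Nestin-CreERT2;ROSA26-EYFP mice (NTG), the wild type control. 3xTg mice are a transgenic model of Alzheimer's disease. Both groups carried the Cre driver and the reporter, received TAM and are labelled as B6129SF2/J. Because Nestin drives the inducible Cre, the reporter marks cells that expressed Nestin when TAM was given and also what those cells became later. The NTG mice came from an independent colony, so that the transgenes and the colony cannot be told apart. The study describes its replicates as biological, while the number of mice per library is not given in the sources used here.

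In a resting cell, RB1 binds E2F transcription factors and keeps the genes of DNA replication low. Mitogens raise D cyclins, which bind CDK4 or CDK6, and the active kinase phosphorylates RB1 so that E2F is released. INK4 proteins bind CDK4 and CDK6 directly, whereas Cip/Kip proteins bind cyclin and kinase together, mainly restraining CDK2 and also helping cyclin D to assemble with its kinase. In the mouse dentate gyrus, Ccnd2 is known as the D cyclin that adult neurogenesis needs most, and Cip/Kip genes are known to keep adult neural stem cells quiescent. Much of this control acts on protein stability, location and phosphorylation, which RNA levels do not measure.

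The members of each family are related but distinct in sequence, which matters for how reads were assigned to them. The stretch below, in reference GRCm38, is shown because it is where the D cyclins carry the short motif by which they bind RB1. Each is written 5′ to 3′ on the coding strand, and capitals mark the 13 of 24 bases shared by all 3 genes.
Ccnd1, exon 1, chr7:144939658-144939681, minus strand: CTcCTGTGcTGCGAaGtggagacc
Ccnd2, exon 1, chr6:127150744-127150767, minus strand: CTgCTGTGcTGCGAgGtggacccg
Ccnd3, exon 3, chr17:47593661-47593684, plus strand: CTgCTGTGtTGCGAgGgcacccgg

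The Cip/Kip genes share the motif by which these inhibitors dock on cyclins, and its coding stretch is shown for the same reason. Capitals mark the 16 of 24 bases that all 3 genes share.
Cdkn1a, exon 2, chr17:29098456-29098479, plus strand: TGCcGttgtCTCTTCGGtCCcGTg
Cdkn1b, exon 1, chr6:134921004-134921027, plus strand: TGCaGaaatCTCTTCGGcCCgGTc
Cdkn1c, exon 2, chr7:143460591-143460614, minus strand: TGCcGcagcCTCTTCGGgCCtGTa

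Over the aligned coding sequence, identity between D cyclins was 68.8% to 72.4%, and the longest run of identical bases was 20. Cdk4 and Cdk6 were 70.8% identical, also with a longest run of 20 bases. Between Cip/Kip genes identity was 65.6% to 75.4%, with runs of at most 11 bases. Gaps were left out of these percentages. The 75.4% was for Cdkn1a and Cdkn1c, whose coding sequences differ in length (477 and 1044 bases) and share a run of only 10 bases. Ccnd3 has a processed copy, Ccnd3-ps, that was 96.5% identical over its aligned part, with a shared run of 89 bases. Its normalized counts were 4.71, 7.31 and 7.43 in 3xTg cells and 9.36, 11.2 and 10.4 in NTG cells, and those of Ccnd3 were at least 3560, so that all reads of the copy would barely move the value of Ccnd3.

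Depth differed between the groups. The 3xTg libraries held 53063475 to 81800375 reads assigned to genes and the NTG libraries 32731794 to 42576455. Among the members, the fewest reads in a library were 178, for Cdkn1c, and the most were 27393, for Ccnd2. NSPC markers were present, with Nes at 741 to 913 normalized counts in 3xTg cells and 844 to 982 in NTG cells and Sox2 at 7311 to 11186 against 11551 to 13471. Of 15 neural stem cell markers none was called by limma. At an unadjusted p under 0.05 by limma, 2 were higher and 3 lower, beside 2253 and 2125 of all 18664 tested genes. For the 15 markers edgeR called 0 and DESeq2 called 1 lower, and 7 estimates were above 0. For 3 markers every 3xTg library was below every NTG library, and for 1 above, beside 12.6% and 15.1% of all tested genes. Without 3xTg replicate 1, limma called 3 of the 15 lower and none higher, beside 5.74% and 5.14% of all tested genes. Their summed level was 823709 to 954510 in 3xTg libraries and 791803 to 941467 in NTG libraries. Slc1a3 and Aldoc made up most of that sum, which therefore says little about the other markers. Transcripts of other cells were present as well. The summed level of 10 astrocyte markers was 1874946 to 2777297 in 3xTg libraries and 2192845 to 2722453 in NTG libraries. In every library it was above the sum of the neural stem cell markers. Apoe and Clu made up most of the astrocyte sum, and none of the 10 markers was called by limma. None of the markers of the 9 cell type lists was at 0 in every library, and the summed level of 13 oligodendrocyte lineage markers was 650533 to 695958 in 3xTg libraries, against 653089, 731796 and 336973 in NTG replicates 1, 2 and 3. The summed level of 20 endothelial markers was 44982 to 62990 in 3xTg libraries and 66414 to 74672 in NTG libraries. Bsg and Slc2a1 made up most of that sum, and neither was called. Of the 20 markers 4 were called lower in 3xTg cells, beside 1.67% of all tested genes. Of 11 tested pericyte and smooth muscle markers, 3 were called lower. Among these 3, Cspg4 is also in the list of oligodendrocyte lineage markers. 3xTg replicate 1 lay nearest to the NTG libraries on the first principal component, at -15.0 against -51.6 and -42.9 for the other 3xTg libraries and 27.7 to 51.0 for NTG. Fold changes also followed GC content. With genes cut into 5 equal classes of GC content, the median log2 fold change was 0.25 in the lowest class and -0.20 in the highest.

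To ask whether 3xTg NSPCs differ from NTG NSPCs in this switch, log2(normalized count + 1) was compared by limma over all tested genes, with Benjamini-Hochberg adjustment. Calls needed both an adjusted p under 0.05 and a change, 3xTg over NTG, larger in size than 0.5 on the log2 scale. None of the 10 genes was called, with 2.8% of all tested genes called either way (210 higher, or 1.13%, and 312 lower in 3xTg cells, or 1.67%). By limma, 1 of the 10, Rb1, had an unadjusted p under 0.05, beside 23.5% of all tested genes. edgeR's quasi-likelihood test called 0 of the 10, beside 2.84% of all tested genes, and DESeq2 called 1, again Rb1, beside 7.16%. Of the 10 estimates 7 were above 0, beside 9483 of all 18664 tested genes. The median log2 fold change of the 10 genes was 0.06. That median was 0.13 with the GC trend removed and 0.13 without 3xTg replicate 1, 0.03 without 3xTg replicate 3, 0.01 without NTG replicate 1 and 0.14 without NTG replicate 2. For 2 genes, Rb1 and Cdkn1b, every 3xTg library was above every NTG library, beside 15.1% of all tested genes with that order. No member had every 3xTg library below every NTG library, beside 12.6% of all tested genes. With 3 libraries against 3, an exact permutation test of a single gene cannot give a two-sided p below 0.1.

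**Figure D1:**
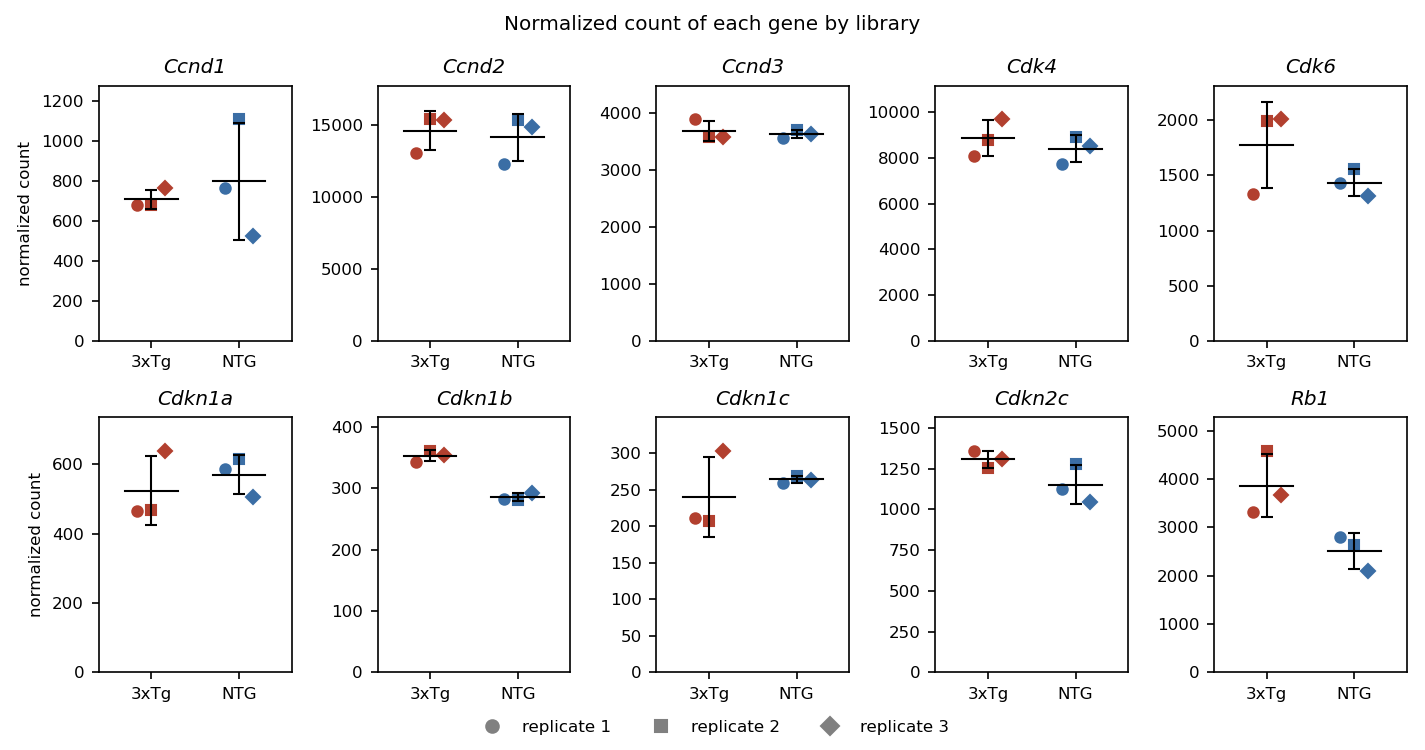
Normalized count (y axis, from 0) of each of the 10 genes in the 3 3xTg and 3 NTG libraries. Points are libraries, with the replicate number shown by the symbol, lines are means and bars are the SD. Only for Cdkn1b and Rb1 are all 3 3xTg points above all 3 NTG points.

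The D cyclins did not pass the test. Ccnd2, the most abundant of them, had normalized counts of 13061, 15407 and 15386 in 3xTg cells, against 12281, 15348 and 14838 in NTG cells. The groups overlapped, with replicate 1 the lowest library in each. Its log2 fold change was 0.05 ± 0.12 (SE), with a 95% interval from -0.23 to 0.32 and a limma adjusted p of 0.838. That interval spans ratios of 0.855 to 1.25, 3xTg over NTG.

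Ccnd3 varied least among the D cyclins. It had 3895, 3588 and 3574 normalized counts in 3xTg cells, against 3560, 3704 and 3632 in NTG cells. For Ccnd3 the log2 fold change was 0.02 ± 0.09 (SE), with an interval from -0.19 to 0.23 (limma adjusted p = 0.915). On the opposite strand, exons of Bysl overlap 4.1% of the exonic bases of Ccnd3.

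Ccnd1, the D cyclin best known as a target of mitogen and Wnt signals, was the least abundant D cyclin and the most variable. It had 680, 680 and 765 normalized counts in 3xTg cells, against 764, 1109 and 527 in NTG cells. All 3xTg values lay inside the NTG range, with NTG replicate 2 the highest of the 6 libraries and NTG replicate 3 the lowest. The coefficient of variation was 6.92% in 3xTg cells and 36.6% in NTG cells. For Ccnd1 the log2 fold change was -0.11 ± 0.23 (SE), with an interval from -0.63 to 0.40 (limma adjusted p = 0.800). Without NTG replicate 2 the estimate was 0.16, and without NTG replicate 3 it was -0.38. NTG replicates 2 and 3, the highest and lowest for Ccnd1, also had the highest and lowest summed oligodendrocyte lineage markers given above, whose part in the Ccnd1 values was not tested. Exons of LTO1 overlap 23.4% of the exonic bases of Ccnd1 on the opposite strand. The library kit does not mark strand, so that reads from that stretch cannot be told apart. LTO1 had 1055, 947 and 1100 normalized counts in 3xTg cells and 908, 928 and 1074 in NTG cells.

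Per kilobase of exon, Ccnd2 made up most of the D cyclin RNA in every library. Its share of the summed level of the 3 D cyclins was 70.2%, 74.7% and 74.2% in 3xTg cells, against 69.7%, 71.3% and 75.0% in NTG cells. Ccnd3 made up 18.5% to 22.5% in 3xTg cells and 18.4% to 21.7% in NTG cells. Ccnd1 made up 6.59% to 7.37% in 3xTg cells and 5.32% to 10.3% in NTG cells. The make-up overlapped between groups for each of the 3 genes.

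**Figure D2:**
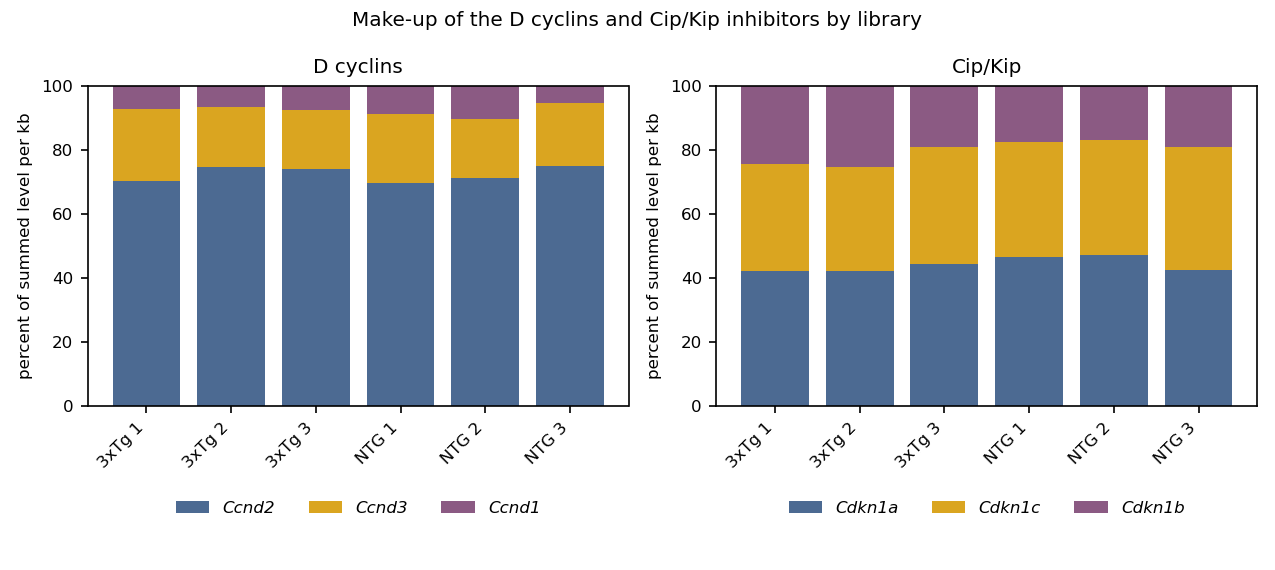
Share of each gene (percent of the summed level per kilobase of exon, y axis) within the D cyclins (left) and within the Cip/Kip inhibitors (right), 1 bar per library with the 3xTg libraries to the left of the NTG libraries. Ccnd2 takes 69.7% to 75.0% of the D cyclins in every library, and no Cip/Kip gene takes more than 47.2%.

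The catalytic partners of the D cyclins did not pass the test either. Cdk4 had 8098, 8804 and 9693 normalized counts in 3xTg cells, against 7754, 8923 and 8510 in NTG cells. The groups overlapped, and as for Ccnd2 the lowest library of each group was replicate 1. Its log2 fold change was 0.08 ± 0.11 (SE), with an interval from -0.16 to 0.32 (limma adjusted p = 0.696). Tspan31 overlaps 19.7% of the exonic bases of Cdk4 on the opposite strand and was itself abundant, at 7592 to 9151 normalized counts in 3xTg cells and 7040 to 7868 in NTG cells.

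Cdk6, the second kinase partner, is known in the mouse dentate gyrus as a kinase that neuronal progenitors need to expand. It had 1329, 1989 and 2008 normalized counts in 3xTg cells, against 1429, 1555 and 1315 in NTG cells. 3xTg replicates 2 and 3 were above all NTG libraries, while 3xTg replicate 1 was inside the NTG range. The estimate for Cdk6 was a log2 fold change of 0.29 ± 0.16 (SE), with an interval from -0.08 to 0.65 (limma adjusted p = 0.313). Without 3xTg replicate 1 it was 0.48 (limma adjusted p = 0.032), which stayed under the fold threshold of 0.5, and after removal of each library's GC trend it was 0.15. Cdk6 made up 3.67% to 4.99% of the summed level of Cdk4 and Cdk6 per kilobase in 3xTg cells, and 3.46% to 4.10% in NTG cells. Cdk4 RNA was thus 19.1 to 26.2 times that of Cdk6 per kilobase in 3xTg cells, and 23.4 to 27.9 times in NTG cells.

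Among the Cip/Kip inhibitors, Cdkn1b stood higher in every 3xTg library and the others overlapped. Cdkn1b is known for holding progenitors of many tissues out of the cycle, chiefly through the stability of its protein. It had 343, 361 and 355 normalized counts in 3xTg cells, against 283, 280 and 293 in NTG cells. Libraries of 1 group lay close together, with a coefficient of variation of 2.61% in 3xTg cells and 2.28% in NTG cells. Its estimate was a log2 fold change of 0.30 ± 0.15 (SE), with an interval from -0.02 to 0.63. Neither its p of 0.063 nor the limma adjusted p of 0.236 passed. The standard error mixed the spread of these 6 values with limma's trend over genes of like abundance. It was wider than their spread alone would give. With a GC content of 43.1%, Cdkn1b lies in the lowest class, whose median log2 fold change was 0.25, and with the GC trend removed its own was 0.10 (limma adjusted p = 0.728). In bulk RNA, more cells with a transcript and more transcript per cell cannot be told apart, for Cdkn1b as for the other genes here.

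Cdkn1a, the p53-induced inhibitor, had 464, 468 and 639 normalized counts in 3xTg cells, against 586, 616 and 507 in NTG cells. 3xTg replicate 3 was the highest of the 6 libraries and 3xTg replicates 1 and 2 were the lowest. For Cdkn1a the log2 fold change was -0.13 ± 0.17 (SE), with an interval from -0.50 to 0.24 (limma adjusted p = 0.657).

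Cdkn1c, an imprinted gene expressed from the maternal copy and tied to long-term quiescence of neural stem cells in mice, was also highest in 3xTg replicate 3. It had 211, 207 and 303 normalized counts in 3xTg cells, against 260, 269 and 263 in NTG cells. The NTG libraries, with a coefficient of variation of 1.82%, lay inside the 3xTg range, whose coefficient was 22.7%. For Cdkn1c the log2 fold change was -0.16 ± 0.19 (SE), with an interval from -0.59 to 0.27 (limma adjusted p = 0.647). Cdkn1c had the highest GC content of the 10 genes (59.4%), and with the GC trend removed its estimate was 0.09. Both Cdkn1a and Cdkn1c are also expressed by vascular cells, whose summed markers were lower in 3xTg libraries as given above, and the part of those cells was not tested.

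The share of Cdkn1b in the summed Cip/Kip level per kilobase was 24.3%, 25.4% and 19.2% in 3xTg cells, against 17.5%, 16.8% and 19.1% in NTG cells. 3xTg replicate 3, in which Cdkn1a and Cdkn1c were highest, was next to NTG replicate 3. Cdkn1a made up 42.1% to 44.3% in 3xTg cells and 42.5% to 47.2% in NTG cells, and Cdkn1c 32.5% to 36.6% in 3xTg cells and 35.9% to 38.4% in NTG cells. The sum of the D cyclins was 5.42 to 7.01 times the sum of the Cip/Kip genes in 3xTg cells and 5.28 to 6.25 times in NTG cells, so that the ranges overlapped.

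Cdkn2c, an INK4 inhibitor of CDK4 and CDK6, had 1360, 1252 and 1309 normalized counts in 3xTg cells, against 1127, 1282 and 1046 in NTG cells. Only NTG replicate 2 reached the range of the 3xTg libraries. For Cdkn2c the log2 fold change was 0.19 ± 0.12 (SE), with an interval from -0.08 to 0.45 (limma adjusted p = 0.357). Its GC content was high (58.0%), in the highest class, whose median log2 fold change was -0.20, and with the GC trend removed the estimate was 0.40 (limma adjusted p = 0.127). The other INK4 genes were in the list of partners described below. Among them, chosen after their values were seen, Cdkn2d had 1594, 1545 and 1505 normalized counts in 3xTg cells and 1555, 1589 and 1581 in NTG cells, Cdkn2b had 58.0 to 107 in 3xTg cells and 60.6 to 77.1 in NTG cells, and Cdkn2a had at most 2.83 in any library and was not tested.

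Rb1, the substrate that the kinases inactivate, showed the largest difference of the 10 genes. It had 3323, 4585 and 3679 normalized counts in 3xTg cells, against 2801, 2636 and 2100 in NTG cells. The groups did not overlap, and the lowest 3xTg library, replicate 1, was the nearest to NTG. The mean of Rb1 was 3862 ± 650.4 in 3xTg cells and 2513 ± 367 in NTG cells (SD, n = 3 each). Between groups, the log2 fold change of Rb1 was 0.62 ± 0.15 (SE), or 1.53-fold, with an interval from 0.29 to 0.95. Its p was 0.0020 and its limma adjusted p 0.059, just above the threshold of 0.05, so that Rb1 was not called.

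The call for Rb1 turned on the test and on the libraries used. DESeq2 on the recovered reads called it (adjusted p = 0.0064), while edgeR did not (adjusted p = 0.054). Without 3xTg replicate 1 the log2 fold change of Rb1 was 0.72 and passed (limma adjusted p = 0.024), at a setting where 10.9% of all tested genes were called. Rb1 passed in none of the other leave-one-out fits, with limma adjusted p of 0.105 to 0.238. Its log2 fold change was 0.49, under the fold threshold, without 3xTg replicate 2 and also without NTG replicate 3. Rb1 had the lowest GC content of the 10 genes (41.2%). After removal of each library's GC trend, its log2 fold change was 0.37 (limma adjusted p = 0.073), under the fold threshold. Exons of Rcbtb2 and Lpar6 overlap 8.1% and 6.8% of the exonic bases of Rb1 on the opposite strand. Lpar6, a receptor gene known to lie nested in Rb1, had 542, 649 and 648 normalized counts in 3xTg cells and 511, 599 and 441 in NTG cells. Rcbtb2 had 2313, 2725 and 2313 in 3xTg cells and 2058, 1970 and 1893 in NTG cells. Rcbtb2 was thus also above NTG in every 3xTg library and Lpar6 overlapped, and their part in the value of Rb1 was not tested.

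**Figure D3:**
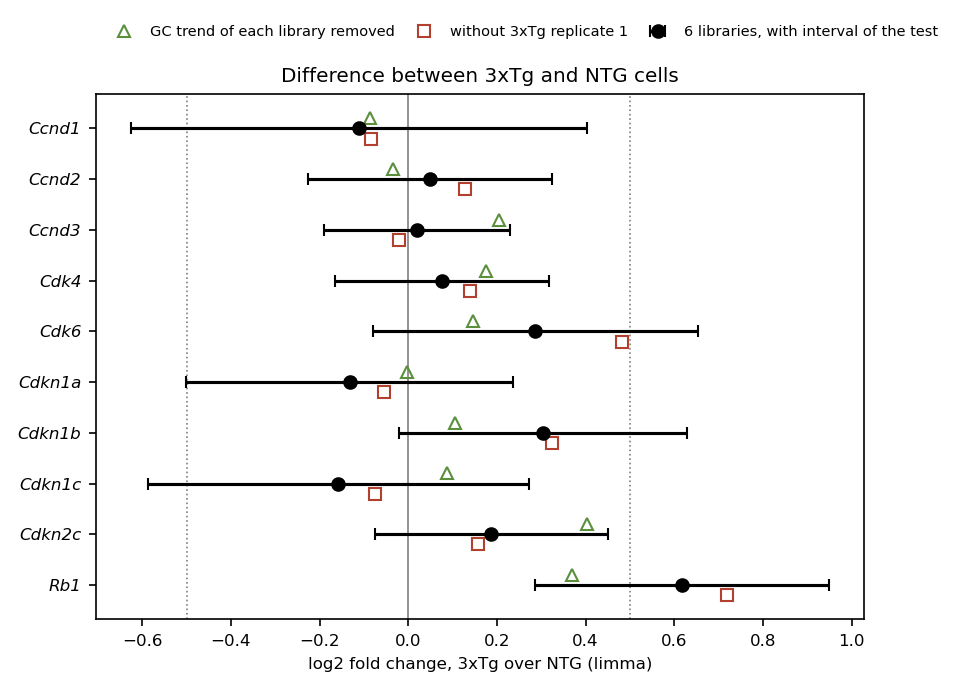
Log2 fold change of each gene, 3xTg over NTG, on the x axis. Black points are limma estimates from 6 libraries with 95% intervals, triangles are estimates after removal of each library's GC trend, squares are estimates without 3xTg replicate 1, and dotted lines mark 0.5 in size. Rb1 alone has an interval that lies above 0, and its triangle is at 0.37.

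The genes whose log2 values followed Rb1 most closely over the 6 libraries were Pdcl, Stx17 and Asb3, of 12373 tested genes with a mean of at least 100 after predicted genes were left out. Their Pearson r with Rb1 was 0.999, 0.998 and 0.997. These are descriptions over 6 libraries that share group, depth and GC content, and carry no p. Pdcl encodes a cofactor for folding of G protein subunits, Stx17 a syntaxin of autophagosome fusion and Asb3 an adaptor of ubiquitin ligases. GC content was 39.7% for Asb3 and 43.5% for Stx17, both in the lowest class, as Rb1 was. Pdcl, at 46.0%, was in the next class. None of the 3 genes was called.

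Set by level per kilobase of exon, the 10 genes spanned a range from Cdk4 to Cdkn1b. Cdk4 averaged 2728 ± 246 normalized counts per kilobase in 3xTg cells and 2584 ± 183 in NTG cells (SD, n = 3 each). Ccnd2 came next, at 1554 ± 143 in 3xTg cells and 1504 ± 175 in NTG cells. These were the only 2 genes above 1000 normalized counts per kilobase. Rb1, Cdkn2c and Ccnd3 formed a middle group. Rb1 had 552 to 762 per kilobase in 3xTg cells, above Cdkn2c at 466 to 506, which was above Ccnd3 at 407 to 444. In NTG cells these ranges overlapped from each gene to the next, with 349 to 466 for Rb1, 389 to 477 for Cdkn2c and 406 to 422 for Ccnd3. Ccnd1, Cdkn1a, Cdkn1c and Cdk6 lay lower, at 95.03 to 180.0 per kilobase in 3xTg cells and 94.0 to 236 in NTG cells. In 3xTg cells, neighbours in that order overlapped from Ccnd1 through to Cdk6, and in NTG cells only Ccnd1 and Cdkn1a did. Cdkn1b was the lowest, at 75.3 to 79.3 in 3xTg cells and 61.6 to 64.3 in NTG cells. With the longest transcript as the length, Ccnd3 moved ahead of Rb1 and Cdkn2c, Cdkn1a ahead of Ccnd1 and Cdk6 ahead of Cdkn1c, while Cdk4 and Ccnd2 stayed first and second and Cdkn1b last.

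**Figure D4:**
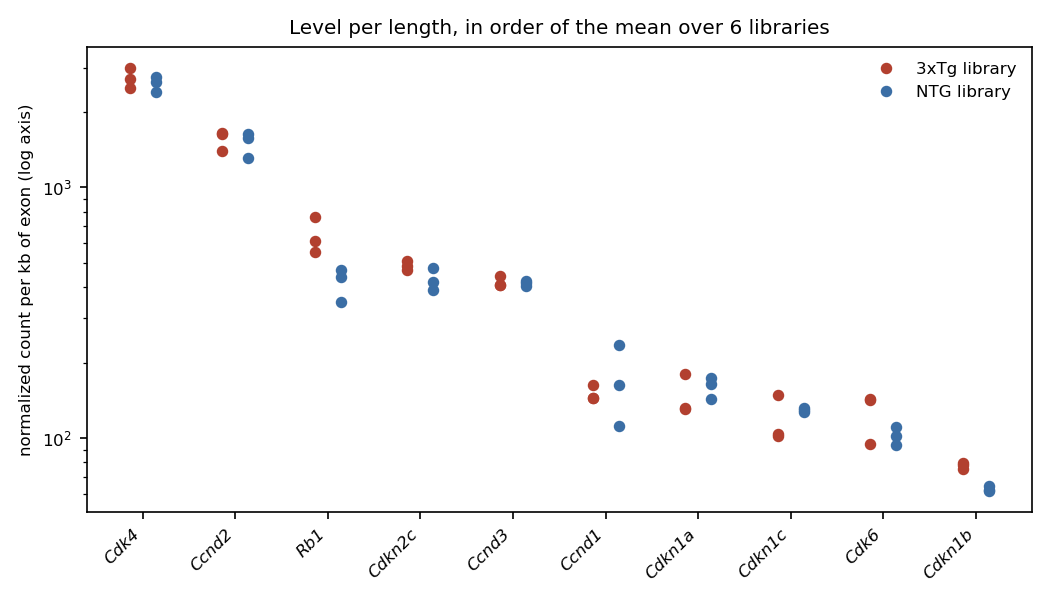
Normalized count per kilobase of exon (y axis, log scale) for the 10 genes, ordered by the mean over 6 libraries. Each point is a library, with 3xTg to the left of NTG for each gene, and Cdk4 and Ccnd2 stand above 1000 while Cdkn1b is at 61.6 to 79.3.

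Promoter windows of RefSeq (GRCm38.p6, from 250 bases before to 50 after a start site) were found for 6 of the 10 genes, namely Ccnd3, Cdk4, Cdk6, Cdkn1a, Cdkn1b and Cdkn2c. The GC box GGGCGG, searched on both strands, was in 6 of the 9 windows of these genes (in 5 of the 6 genes, all but Cdk6), and in 35.7% of all 32851 windows. The CCAAT box was in 3 of the 9 windows (1 each of Ccnd3, Cdkn1b and Cdkn2c) and in 37.4% of all windows. The E2F motif, searched as TTTCCCGC, TTTGGCGC or TTTCGCGC, and the FOXO motif TTGTTTAC were in none of the 9 windows, and in 1.84% and 1.23% of all windows.

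Around these genes, 5 lists of their pathway were examined by counts and medians, beside a median log2 fold change of 0.01 over all tested genes. Of the G1/S partners (cyclin E, CDK2, the CDK-activating kinase, E2F and DREAM genes), none of 31 tested genes was called by limma. At an unadjusted p under 0.05 by limma, 3 of the 31 were higher and 1 lower, beside 2253 and 2125 of all 18664 tested genes. edgeR and DESeq2 called 0 of the 31. Their median log2 fold change was 0.18. The 3 with the smallest p were Ccnh and Cdk7, 2 subunits of the CDK-activating kinase, and Rbl2, the Rb1 relative known as p130 that marks resting cells. Ccnh had 2083, 2444 and 1956 normalized counts in 3xTg cells, against 1652, 1676 and 1596 in NTG cells (log2 fold change 0.39, limma adjusted p = 0.096). Cdk7 had 1013, 1268 and 1233 in 3xTg cells, against 931, 912 and 861 in NTG cells (log2 fold change 0.37, limma adjusted p = 0.129). Rbl2 had 3664, 3989 and 3823 in 3xTg cells, against 3412, 3053 and 2426 in NTG cells (log2 fold change 0.38, limma adjusted p = 0.131). None of the 3 passed. Their groups did not overlap, which their choice by small p favours. Every 3xTg library was above every NTG library for 7 of the 31 genes, beside 15.1% of all tested genes. The third member of the Rb family, Rbl1 (p107), chosen after its values were seen, had 289, 477 and 342 in 3xTg cells, against 364, 404 and 291 in NTG cells.

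Of 37 regulators of cyclin D and Cip/Kip levels, 3 rose in 3xTg cells and none fell, beside 1.13% and 1.67% of all tested genes, and the list's median was 0.07 (0.13 with the GC trend removed). Foxo3, a FOXO transcription factor known to sustain quiescence of adult neural stem cells in mice and to induce Cdkn1b in other cells, had 2379, 1791 and 2214 normalized counts in 3xTg cells, against 922, 750 and 701 in NTG cells. The groups did not overlap, and Foxo3 had a log2 fold change of 1.43 ± 0.15 (SE; limma adjusted p = 8.9e-04). Klf4, a transcription factor known to raise Cdkn1a in other cells, had 570, 1230 and 1688 in 3xTg cells, against 317, 217 and 327 in NTG cells. Its log2 fold change was 1.90 ± 0.34 (SE; limma adjusted p = 0.021), while Cdkn1a had values on either side of NTG as given above. Pim1, a kinase known to phosphorylate CDKN1A and CDKN1B, had 1034, 924 and 1050 in 3xTg cells, against 651, 509 and 709 in NTG cells (log2 fold change 0.70 ± 0.15, SE; limma adjusted p = 0.041). These 3 genes also passed with the GC trend removed and without 3xTg replicate 1. Foxo3 also passed in each fit that left out 1 library, with limma adjusted p of at most 0.0085. Klf4 and Pim1 did not pass without 3xTg replicate 2 or 3 or NTG replicate 1 or 2, with adjusted p of 0.056 to 0.171.

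Downstream of E2F, 1 of 40 target genes of S phase rose and none fell, beside 1.13% and 1.67% of all tested genes. This was Cdca7, a chromatin gene that E2F and Myc induce, with 1926, 2347 and 2187 normalized counts in 3xTg cells, against 1206, 1447 and 1489 in NTG cells (log2 fold change 0.64 ± 0.13, SE; limma adjusted p = 0.030). Cdca7 did not pass without 3xTg replicate 2 or 3 or NTG replicate 1 or 2, with adjusted p of 0.065 to 0.146. The list had a median of 0.24 (0.15 without 3xTg replicate 2). Of its 40 estimates 36 were above 0, beside 9483 of all 18664 tested genes. For 7 of the 40 every 3xTg library was above every NTG library, and for 2 below, beside 15.1% and 12.6% of all tested genes. Of 30 mitosis genes, which act after the switch, 1 rose and none fell, beside 1.13% and 1.67% of all tested genes. The gene that rose was Smc4, a condensin subunit, with 1100, 1661 and 1468 in 3xTg cells, against 805, 858 and 735 in NTG cells. Its log2 fold change was 0.80 ± 0.16 (SE, limma adjusted p = 0.033). Of the 30 estimates all were above 0, beside 9483 of all 18664 tested genes, and 29 with the GC trend removed. The median of the 30 genes was 0.43. In leave-one-out fits that median ran from 0.31 without 3xTg replicate 2 to 0.67 without 3xTg replicate 1. Without 3xTg replicate 2, and also without 3xTg replicate 3, 26 of the 30 estimates were above 0. For 3 of the 30 every 3xTg library was above every NTG library, and for 0 below, beside 15.1% and 12.6% of all tested genes. Smc4 passed without 3xTg replicate 1 and in none of the other 5 leave-one-out fits, with adjusted p of 0.056 to 0.147 in those. Without 3xTg replicate 1, 17 of the 30 mitosis genes and 6 of the 40 E2F targets were called higher, beside 5.14% of all tested genes, and 1 of the 10 genes, Rb1. No member was called lower in that fit, beside 5.74%. In each of the other 5 leave-one-out fits 0 mitosis genes were called, and 0 to 1 E2F targets. Among the 3xTg libraries, replicate 1 was the lowest for Ccnd2, Cdk4, Cdk6, Cdkn1a, Cdkn1b and Rb1. It was the highest for Ccnd3 and Cdkn2c, and the middle one for Ccnd1 and Cdkn1c. For Ccnd2 and Cdk4 the lowest NTG library was also replicate 1. Markers of intermediate progenitors and neuroblasts summed to 41974, 53653 and 62238 in 3xTg replicates 1, 2 and 3, against 46967 to 54016 in NTG libraries. None of these 13 markers was called by limma with all 6 libraries, edgeR called 0 and DESeq2 called 1 higher. At an unadjusted p under 0.05 by limma, 3 were higher and none lower, beside 2253 and 2125 of all 18664 tested genes. Without 3xTg replicate 1, limma called 4 of the 13 higher, beside 5.14% of all tested genes. The part of such cells in these values was not tested.

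Of 26 p53 target genes, a list that includes Cdkn1a, none rose and 1 fell, beside 1.67% of all tested genes, with a median of 0.14 (0.04 with the GC trend removed). This was Perp, a desmosome gene also known as a p53 effector of cell death, with 216, 95.1 and 106 normalized counts in 3xTg cells, against 369, 317 and 441 in NTG cells (log2 fold change -1.52 ± 0.30, SE; limma adjusted p = 0.031). Perp likewise passed without 3xTg replicate 1 and in none of the other 5 leave-one-out fits, with adjusted p of 0.051 to 0.134 in those.

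**Figure D5:**
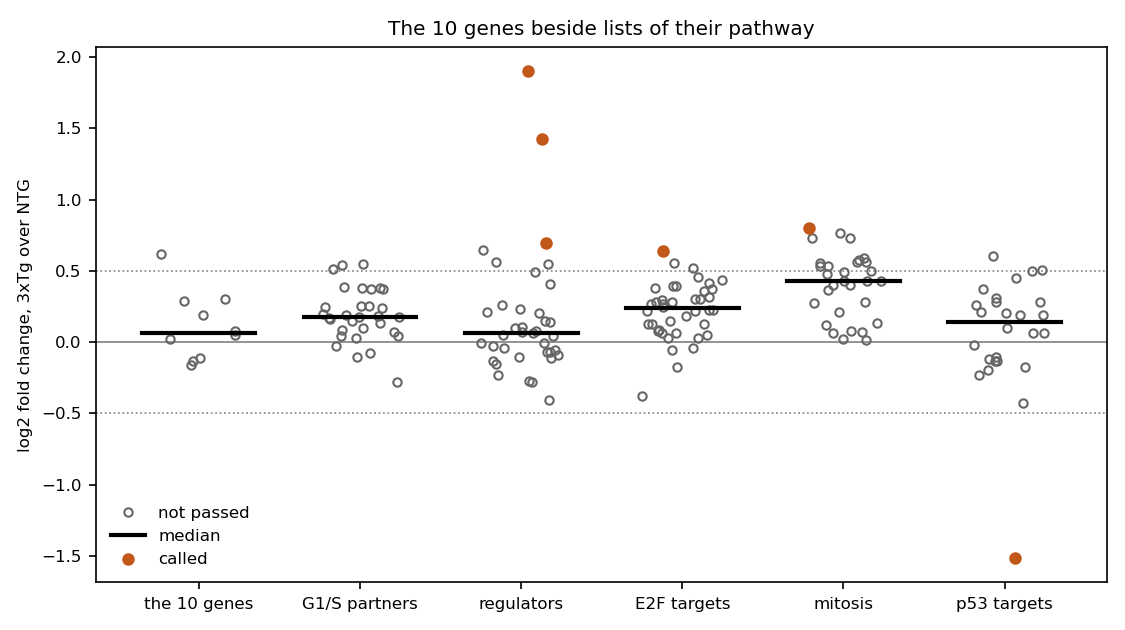
Log2 fold change, 3xTg over NTG (y axis), of the 10 genes and of the tested genes of 5 pathway lists, 1 point per gene. Bars are list medians, filled points passed the limma test and dotted lines mark 0.5 in size. None of the 10 genes is filled, and the medians run from 0.06 for the 10 genes to 0.43 for mitosis genes.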

How the data were processed

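The table, 1 row per gene, was made by the authors, who aligned reads to GRCm38 (mm10) with HISAT2 and counted them with featureCounts. Its 6 sample columns, used here, are signal values that the authors normalized with DESeq2. Its log2 fold changes, p-values and score-like columns (test statistic and weight) are the authors' own comparison and were not used. Every deposited signal value was a whole read count times 1 factor per library, within 0.01 reads (100% of values), and these reads gave the depth. Tool versions are not given in the sources used here.

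The test was limma 3.58.1 (trended variance, R 4.3.3) on log2(normalized count + 1) of genes averaging 10 or more, 3 3xTg against 3 NTG libraries, adjusted over all tested genes. Fold changes are on that scale. edgeR 4.0.16 and DESeq2 1.42.0 were run on the recovered reads. Fits were tested on simulated data. Other settings were the added count, filter, scaling, array weights, replicate block, removal of each library's GC trend and each library left out. Removal of the GC trend without 3xTg replicate 1 was chosen after seeing the data. Lengths, GC content, coordinates and overlaps came from GENCODE M21 on GRCm38. Levels per kilobase used the union of exons. A comparison of proteins was planned and not run, and coding bases were compared in its place. Genes and lists were chosen with earlier results of these data known. Named were the 10 genes, called list genes up to 6 per list (with none called, the 3 of smallest p), the 3 genes most like the gene of smallest p, and overlapping genes. Listed symbols not analysed here numbered 2. Python 3.11.15 with pandas 2.3.3, numpy 2.4.6 and matplotlib 3.10.9 gave the tables and plots. p-values measure the spread between these libraries, which may be in part technical.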

Additional observations from a re-analysis of the deposited data

How the results depend on the processing

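The log2 fold changes of the 10 genes and the counts of calls were recomputed under 18 other settings, and levels per kilobase with another length. Cdk4, Cdk6, Cdkn1b, Cdkn2c and Rb1 stayed positive in all 18. Rb1 was called by DESeq2 (0.61), with array weights (0.52), with a replicate block (0.62) and without 3xTg replicate 1, so that 1 of the 10 genes was called in those 4 settings and 0 in the other 14; the log2 fold change of Rb1 ran from 0.37 to 0.72. The replicate numbers were not shown to pair the libraries (correlations of same-numbered deviations 0.06, 0.20 and 0.04). Signs turned, with no call, for Ccnd2 with the GC trend removed, with or without the replicate block (-0.035), for Ccnd3 with array weights (-0.0027), for Cdkn1a with array weights (8.7e-04) and with the GC trend removed without 3xTg replicate 1 (0.11), and for Cdkn1c with the GC trend removed, with or without the replicate block (0.087), with that trend removed without 3xTg replicate 1 (0.25) and with array weights (0.053). Leave-one-out fits, in which no library was left alone in its group, gave log2 fold changes of -0.38 to 0.16 for Ccnd1, -0.050 to 0.13 for Ccnd2, -0.020 to 0.042 for Ccnd3, 0.49 to 0.72 for Rb1, 0 to 1 calls among the 10 genes and 163 to 2030 calls among all tested genes.

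All tested genes called numbered 1337 by DESeq2, 2604 with array weights and 1186 with the GC trend removed without 3xTg replicate 1. Leave-one-out fits gave 0 to 1 calls among G1/S partners, 1 to 8 among regulators, 0 to 6 among E2F targets, 0 to 17 among mitosis genes and 0 to 5 among p53 targets. DESeq2 called 6 regulators, 2 E2F targets, 5 mitosis genes and 2 p53 targets. Array weights gave 1 G1/S partner, 8 regulators, 6 E2F targets, 16 mitosis genes and 5 p53 targets. The GC trend removed without 3xTg replicate 1 gave 6 regulators, 2 E2F targets, 9 mitosis genes and 3 p53 targets. With the longest transcript as the length, levels per kilobase were 4204 for Cdk4, 2273 for Ccnd2, 685 for Rb1, 948 for Ccnd3, 202 for Ccnd1, 263 for Cdkn1a and 139 for Cdk6. The widest 95% interval of the 10 genes, for Ccnd1, was 0.51 on either side on the log2 scale. With that spread, smaller differences in Ccnd1 would not reach an unadjusted p under 0.05. A call asked for more, since p was adjusted over all tested genes. Rb1, with an interval of 0.33 on either side and an estimate of 0.62, was not called.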
